A study of Phaffia rhodozyma with 29 samples.

Results

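The 35 genes described here were lower in strains of Xanthophyllomyces dendrorhous (Phaffia rhodozyma) that lack SRE1 than in strains that keep it, with CYP61 intact and with CYP61 interrupted. They were selected on total read counts, by 3 criteria, from the 6469 genes in the count tables. A gene needed a mean of at least 5 CPM (the count as a share of the library total, scaled to 1e6) over the 12 libraries of 4 strains. Its mean of log2(CPM + 1) had to be below wild type (Ne) by at least 0.5 in sre1-, and below cyp61- by at least 0.5 in the double mutant. Of 5844 genes above the minimum level, 71 (1.21%) met the first difference and 1520 (26.0%) the second. The 35 genes that met both were 49.3% of the 71 and 2.3% of the 1520. On CPM by library totals the second of these 2 differences was therefore common among all genes, and the first was rare. The median of the second over all genes above the minimum level was -0.22 on this scale. With CPM scaled by edgeR's TMM factors it was -0.02.

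All strains have CBS 6938 as parent, and each group has 3 libraries, A, B and C, described as biological replicates. The series text gives growth to late exponential phase for wild type, the tagged strains and sre1-, and does not mention the growth of the 2 strains with CYP61 interrupted and no tag. The groups were sre1- (SRE1 deletion), the double mutant (SRE1 deletion with an interrupted CYP61 locus), cyp61- (interrupted CYP61 locus), a strain with a FLAG epitope fused to Sre1, and 2 sets of wild-type libraries. These are called wild type (Ne) and wild type (N) after the suffix of their labels. The series text names tagged strains with and without CYP61 interrupted. The ChIP-exo labels call them cyp61- FLAG-SRE1 and FLAG-SRE1N, so the tagged form of Sre1 may differ between them. The RNA-seq labels do not say from which of them the tagged libraries came, nor what drives the tagged gene. The table headers of sre1- and wild type (Ne) differ from the other 4 in not naming paired, trimmed reads, so the 6 groups form 2 sets of count tables, and sre1- against wild type (Ne), the double mutant against cyp61- and the tagged strain against wild type (N) each stay inside a set. Library totals ran from 9300589 to 20663214 counts, the lowest in tagged strain A. The files pair gene identifiers with contigs but not with names, products or coordinates. Levels of SRE1 and CYP61 were therefore not checked in their mutants, and no pathway list could be matched. No statement is made about what any of the 35 genes encodes.

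Sre1 belongs to the sterol regulatory element-binding proteins. In fungi these are held in a membrane as precursors, and when sterols are low the N-terminal part is released and acts as a transcription factor in the nucleus. Known targets in other fungi include genes of the mevalonate and ergosterol pathways. CYP61 is the C-22 sterol desaturase, a late enzyme of ergosterol synthesis, and in this yeast the mevalonate pathway also supplies the precursors of astaxanthin, its red carotenoid.

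The 35 genes were lower in SRE1-deleted strains by unequal amounts in the 2 backgrounds. In the double mutant against cyp61-, the difference of mean log2(CPM + 1) ran from -6.13 to -0.66 with a median of -2.15, beside -0.22 over all genes above the minimum level. In sre1- against wild type (Ne), it ran from -2.31 to -0.50 with a median of -0.73, beside 0.09 over all genes. The difference was the larger in the cyp61- background for 33 of the 35. That count was not made over all genes, whose median was also lower in that background, and the 2 differences come from 2 table sets. At least 2-fold lower levels were reached by 29 genes in the double mutant and by 10 in sre1-. In the double mutant 19 genes were at least 4-fold lower. These fold counts were not made over all genes either. Of all genes above the minimum level, 26.0% met the double mutant criterion and 1.21% the sre1- criterion. A larger difference in the double mutant was thus not shown to be particular to the 35. Across the 35 genes the 2 differences had Pearson r = 0.50 and Spearman rho = 0.57 (n = 35, shared libraries of 4 strains). Both differences chose the genes, so these values are a description and were not tested.

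**Figure D1:**
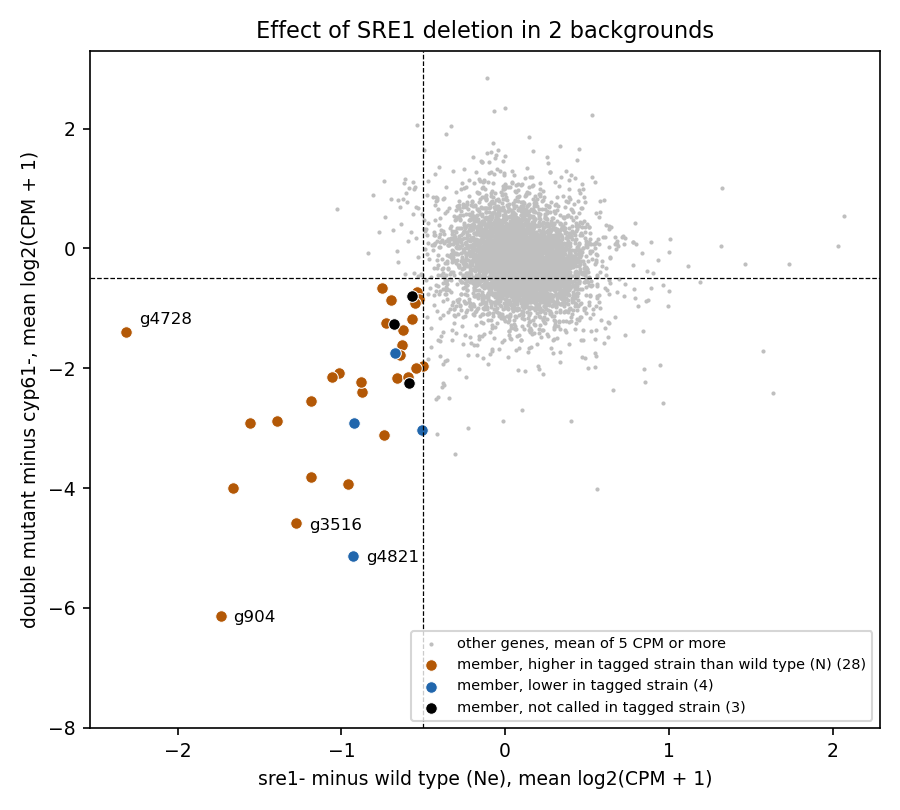
Difference of mean log2(CPM + 1) for sre1- minus wild type (Ne) on the x axis and for the double mutant minus cyp61- on the y axis, 1 point per gene with a mean of at least 5 CPM, with dashed lines at the threshold of -0.5. The 35 genes fill the lower left corner, and the colours give their edgeR calls for the tagged against wild type (N) libraries, 28 higher, 4 lower and 3 not called.

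Group overlap differed between the 2 backgrounds. All 3 double mutant libraries lay below all 3 cyp61- libraries for 29 of the 35 genes (35.1% of all genes above the minimum level), and all 3 sre1- libraries lay below all 3 wild type (Ne) libraries for 17 (1.01% of all). For 15 genes neither pair of groups overlapped (0.599% of all). The edgeR quasi-likelihood test, fitted to all genes, called 29 of the 35 lower for the double mutant against cyp61- (11.9% of 6228 genes tested). It called 11 lower for sre1- against wild type (Ne), which were all the genes it called lower there (0.177%). These counts come from the libraries that chose the genes, are a description, and support neither difference. The other 24 genes did not pass the edgeR threshold in sre1-.

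The first difference also depended on single libraries. Without wild type (Ne) B the same criteria chose 63 genes, 28 of them among the 35, and without wild type (Ne) C they chose 64, 29 of them among the 35. Over the 12 libraries left out in turn, between 31 and 64 genes were chosen, and 13 of the 35 were chosen each time. By mean chi-square per gene, library C of wild type (Ne) stood at 193 from A and 322 from B, against 56.1 between A and B. For sre1- the values were 179 and 184, against 17.2. Without library C of both groups 47 genes were chosen, 28 of them among the 35.

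A choice made without the libraries of a letter in all 4 groups left values that the choice had not used. With the A libraries left out, the 29 genes chosen had a median log2(CPM + 1) difference of -0.97 in sre1- A minus wild type (Ne) A, against -0.06 over all genes above the minimum level. With the B libraries left out, the 74 genes chosen had 0.03 against 0.14. With the C libraries left out, the 42 genes chosen had -0.10 against 0.20. The threshold of -0.5 was passed in the libraries left out by 55.2% of the genes chosen without A, 17.6% of those chosen without B and 23.8% of those chosen without C, against 4.77%, 3.51% and 4.28% of all genes. For the double mutant minus cyp61-, the medians in the libraries left out were -2.42, -0.98 and -2.39, against -0.18, 0.0049 and -0.49 over all genes. At the threshold of -0.5 the difference in the wild-type background thus recurred for most genes chosen in library A. In libraries B and C it did so for a minority. Below 0 in the libraries left out were 27 of 29 genes for A, 34 of 74 for B and 24 of 42 for C. Those counts below 0 were not made over all genes.

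Gene g4728 on contig 4 had the largest difference between sre1- and wild type (Ne). It had 27.6, 29.9 and 30.7 CPM in sre1- A, B and C, against 177, 170.4 and 111 CPM in wild type (Ne). In the cyp61- background it had 78.2, 79.3 and 58.2 CPM in the double mutant, against 202.5, 156 and 214 CPM in cyp61-. Neither pair of groups overlapped, and g4728 was 1 of only 2 genes of the 35 with a larger difference in the wild-type background, -2.31 against -1.40. The other was g5526 on contig 2, at -0.75 against -0.66.

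Gene g904 on contig 3 had the largest difference in the cyp61- background. It had 49.5, 41.4 and 38.3 CPM in the double mutant, against 2728, 2330.0 and 4565 CPM in cyp61-. In the wild-type background it had 39.3, 36.7 and 48.0 CPM in sre1-, against 205, 188 and 69.8 CPM in wild type (Ne). Its level was thus alike in both SRE1-deleted strains, while the strains with SRE1 differed widely, and the C library of wild type (Ne) came closest to sre1-. Gene g3516 on contig 0 was also low in both SRE1-deleted strains and high in cyp61-, with 18.6, 18.8 and 17.1 CPM in the double mutant against 443, 323 and 678 CPM in cyp61-. It had 18.4, 17.5 and 22.0 CPM in sre1- against 59.1, 70.6 and 26.3 CPM in wild type (Ne).

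The genes nearest the criteria were close in value for the sre1- difference and farther apart for the other 2 criteria. Gene g5164 on contig 2 had the smallest difference inside for sre1- (-0.5006), and g5685 on contig 6 the nearest outside (-0.48). For the double mutant the nearest values were -0.66 inside (g5526) and -0.46 outside (g1330 on contig 3). Gene g5164 was also the least abundant, with a mean of 7.30 CPM over the 12 libraries, and 3 further genes met both differences below 5 CPM, the highest of them g1193 on contig 3 at 2.55 CPM. The 35 genes had a median level of 143 CPM and reached 2626 CPM, against a median of 47.4 CPM for all genes above the minimum.

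The tagged strain and wild type (N) took no part in the choice, so their comparison is a measurement that the criteria did not use. Most of the 35 genes were higher in the tagged strain. All 35 passed the filter on low counts, and edgeR called 28 of them higher (adjusted p between 5.63e-08 and 0.0453), against 28.0% of the 6228 genes tested. It called 4 lower, against 26.3% of the genes tested, and 3 were not called. The median log2 fold change was 1.72 over the 35 genes and 0.02 over all genes tested. The share called higher among the 1520 genes that met the double mutant difference was not counted. The rise is therefore not shown to be particular to the 35. Genes that met only that difference included g3385 (2.70), above the median of the 35, and g3248 (-0.22), both named after their values were seen. How many of those genes went each way was not counted, so these examples do not show a balance. Of the 28, 25 were at least 2-fold higher (10.1% of all genes tested), 13 at least 4-fold (2.04%) and 6 at least 8-fold (0.514%). All 3 tagged libraries lay above all 3 wild type (N) libraries for 29 genes (46.6% of all genes above the minimum level), and below them for 5 (23.1%).

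The count of 28 was 22 without tagged strain C, the lowest value on leaving out a library of this comparison. Scaled by library totals alone, the median over all genes tested moved to 0.25 and that of the 35 genes to 1.96, with 28 still higher and 4 lower. The genes chosen without wild type (Ne) B, wild type (Ne) C or sre1- C included 52 of 63, 43 of 64 and 45 of 48 called higher. All 13 genes that were chosen whichever of the 12 libraries was left out were called higher, with a median log2 fold change of 2.56.

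**Figure D2:**
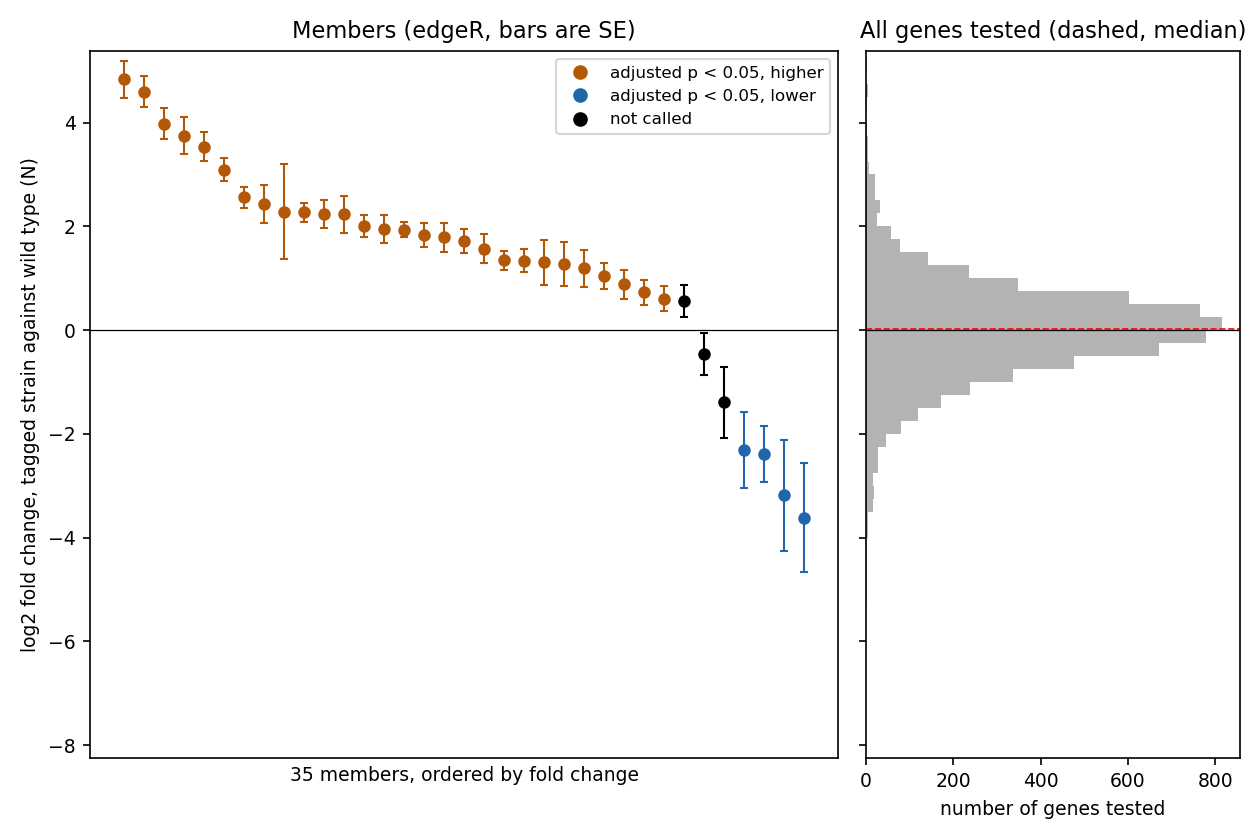
Left, edgeR log2 fold change (y axis) of tagged strain over wild type (N) with its SE for each of the 35 genes, in falling order, coloured by the call. Right, the same quantity for all 6228 genes tested, as a histogram with the median of 0.02 dashed, beside 1.72 for the 35 genes.

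Gene g904 had the largest rise in the tagged strain. It had 4094, 4854 and 7010.3 CPM in the tagged strain, against 137, 188 and 148 CPM in wild type (N), 4.84 ± 0.35 in log2 fold change with its SE (edgeR, adjusted p = 8.69e-08). Gene g3516 rose by 4.59 ± 0.30 log2 units (edgeR, adjusted p = 5.63e-08), with 1194, 1156 and 1614 CPM in the tagged strain against 46.0, 51.4 and 42.2 CPM in wild type (N). In both genes every tagged library was far above every wild type (N) library. Gene g4728 rose less, to 492, 286 and 356 CPM against 129, 136 and 117 CPM in wild type (N), 1.35 ± 0.18 in log2 fold change (edgeR, adjusted p = 2.26e-05). The 28 genes called higher had log2 fold changes from 0.60 to 4.84 with a median of 1.94.

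The 4 genes that fell in the tagged strain were g4824, g4821 and g4822, close by number on contig 4, and g4988 on contig 2. Genes g4822 and g4988 are named after their values were seen, as are g4823, g3053 and g4835, the 3 genes that were not called. Gene g4988 had 278, 330 and 146 CPM in the tagged strain against 1218, 1076 and 1069 CPM in wild type (N), -2.38 ± 0.54 in log2 fold change (edgeR, adjusted p = 0.00154). The 2 wild types differed widely for g4988, with 245, 263 and 238 CPM in wild type (Ne), from the other table set. Gene g3053 on contig 0 had 0.55 ± 0.31 in log2 fold change (edgeR, adjusted p = 0.137), and g4835 on contig 2 had -0.46 ± 0.40 (edgeR adjusted p = 0.343). The plot of single genes shows g4988 and 5 others in all 6 groups.

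**Figure D3:**
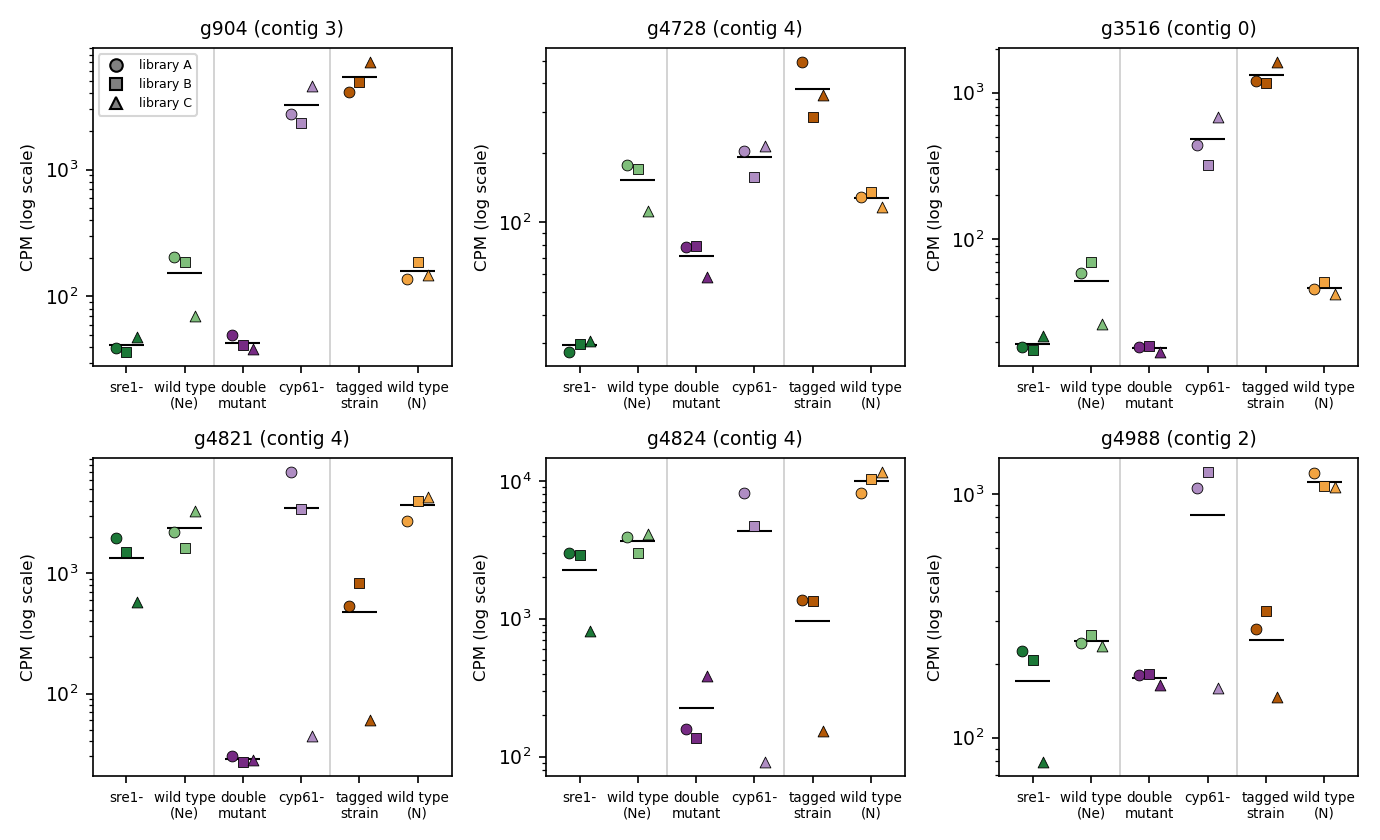
CPM on a log scale (y axis) in each library of the 6 groups (x axis) for 6 of the 35 genes, with bars at the group means and symbols for libraries A, B and C. Genes g904, g4728 and g3516 are highest in the tagged strain, while g4821, g4824 and g4988 are low there and vary widely among the cyp61- libraries, with cyp61- C the lowest.

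Genes g4821 to g4824 carry consecutive numbers on contig 4 and form the longest run among the 35. They were abundant and moved unlike most of the others. Gene g4821 had 534, 834 and 60.8 CPM in the tagged strain against 2747, 3972 and 4307 CPM in wild type (N), -3.18 ± 1.07 in log2 fold change (edgeR, adjusted p = 0.0194). Gene g4824 had 1363, 1349 and 154 CPM against 8163, 10307 and 11586 CPM, -3.62 ± 1.05 in log2 fold change (edgeR, adjusted p = 0.00845). Gene g4822 fell by 2.31 ± 0.73 log2 units (edgeR, adjusted p = 0.0138). Gene g4823 had -1.39 ± 0.68 (edgeR adjusted p = 0.0952), and passed the threshold with these 2 groups fitted alone (edgeR adjusted p = 0.0309). Tagged strain C was the lowest tagged library for all 4 genes. Without it 2 genes of the 35 were called lower, and the adjusted p was 0.0593 for g4821 and 0.0504 for g4822. Without tagged strain A the adjusted p of g4821 was 0.0505.

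The low values of the run in the double mutant were set against cyp61- libraries that did not agree among themselves. Gene g4821 had 30.0, 27.2 and 27.8 CPM in the double mutant, against 6951, 3425 and 44.3 CPM in cyp61- A, B and C. Gene g4824 had 158, 137 and 382 CPM in the double mutant, against 8202, 4745 and 92.0 CPM in cyp61-. For all 4 genes cyp61- C was the lowest cyp61- library, and for 2 of them, g4823 and g4824, it lay below all 3 double mutant libraries. In the wild-type background sre1- C was the lowest sre1- library for all 4, with 575 CPM of g4821 beside 1969 and 1517 CPM in sre1- A and B, while wild type (Ne) had 2207, 1612 and 3317 CPM. edgeR called none of the 4 lower for sre1- against wild type (Ne) (adjusted p between 0.971 and 0.983). Without sre1- C the criteria chose 48 genes, of which edgeR called 0 lower in the tagged strain, with 0 also at an unadjusted p under 0.05 and 0 by DESeq2. The C libraries thus move with the values of this run in 3 strains, and their part in the result was not tested.

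The genes that flank the run by number, 3 on each side, were not among the 35. The flanking genes are named after their values were seen. Next to g4821, g4820 had 6.71 CPM on average in the tagged strain and 58.6 CPM in wild type (N), -3.37 ± 0.44 in log2 fold change (edgeR, adjusted p = 1.81e-05). Its mean was 38.9 CPM for the double mutant against 56.7 CPM for cyp61-, a log2(CPM + 1) difference of -0.31, and in sre1- it lay above wild type (Ne) by 0.33. On that side g4819 and g4818 were not called (edgeR adjusted p = 0.502 and 0.286). On the other side all 3 flanking genes were called lower in the tagged strain. Gene g4825, at 1.54 CPM over the 12 libraries and so below the minimum level, had a log2 fold change of -1.63 (edgeR adjusted p = 0.0352). The values were -1.18 for g4826 (edgeR adjusted p = 0.000151) and -0.79 for g4827 (edgeR adjusted p = 0.00213). The sources used here give neither strand nor gene models, so reads of adjacent genes may not be told apart.

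Summed over genes, the run and the others had separate patterns. The 31 genes outside the run made up 0.339%, 0.360% and 0.340% of the counts in sre1-, against 0.812%, 0.714% and 0.577% in wild type (Ne). They made up 0.306%, 0.319% and 0.318% in the double mutant, against 1.85%, 1.83% and 2.26% in cyp61-. In the tagged strain their share was 2.59%, 2.83% and 3.68%, against 0.775%, 0.831% and 0.733% in wild type (N). None of these 3 pairs of groups overlapped. For the first 2 pairs the choice of the genes favours that. The tagged strain against its wild type is the pair whose libraries the choice did not use. Set side by side across the 2 table sets, the sum was highest in the tagged strain and next in cyp61-. Both wild types lay together and both SRE1-deleted strains were lowest. Abundant genes weigh most in such a sum, and single genes differed between the wild types in both directions. Mean CPM in wild type (N) and wild type (Ne) was 3045 and 1533 for g2630, and 16.2 and 62.0 for g1511. These 2 genes are named after their values were seen.

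The 4 genes of the run made up 0.0348%, 0.0321% and 0.0558% of the counts in the double mutant, against 1.74%, 0.974% and 0.0279% in cyp61-. They made up 0.605%, 0.537% and 0.195% in sre1-, against 0.723%, 0.552% and 0.937% in wild type (Ne). In the tagged strain they made up 0.256%, 0.29% and 0.0360%, against 1.20%, 1.56% and 1.73% in wild type (N). Here the double mutant and cyp61- overlapped, as did sre1- and wild type (Ne), and wild type (N) lay above the tagged strain. The split of the 35 into the run and the rest was made after values were seen.

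**Figure D4:**
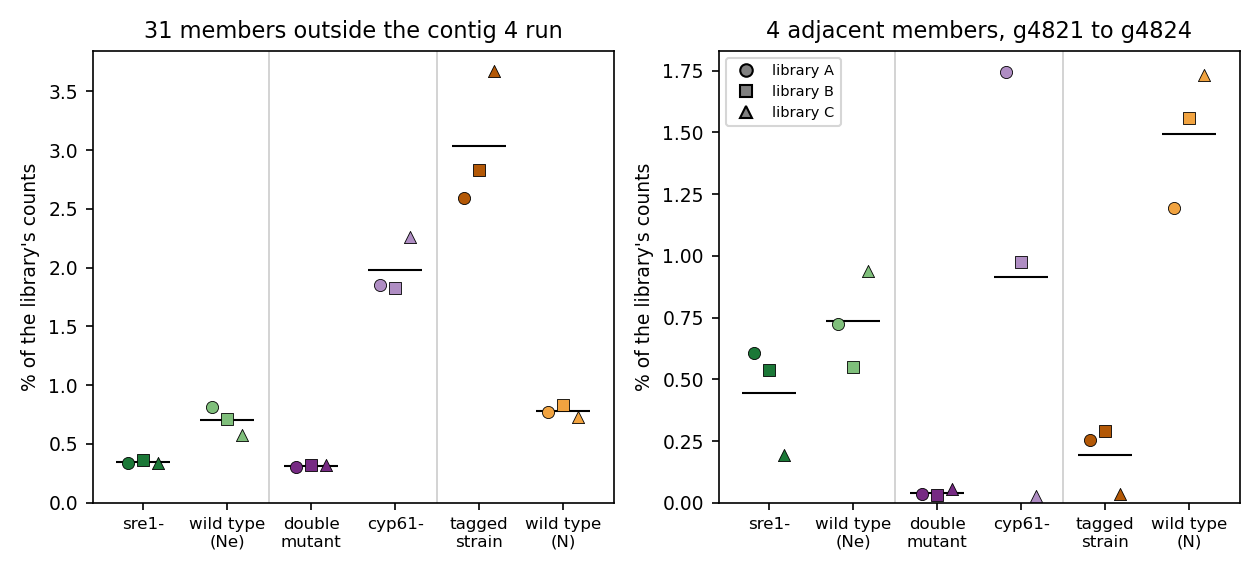
Share of each library's counts (y axis, %) held by the 31 genes outside the run (left) and by the run g4821 to g4824 (right), with a bar at each group mean and symbols for libraries A, B and C. Outside the run the tagged strain is highest (2.59% to 3.68%) and the double mutant lowest (0.306% to 0.319%), while the run is high in wild type (N) and spans 0.0279% to 1.74% in cyp61-.

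Set against wild type (N), which shares the table set of cyp61- and the double mutant, most of the 35 genes were high in cyp61- and low in the double mutant. Both comparisons use libraries that chose the genes, and both use the control of the tagged strain, so their values are a description. The level in cyp61- was above wild type (N) for 28 of the 35 (61.9% of all genes above the minimum level), with a median log2(CPM + 1) difference of 1.07, beside 0.16 over all genes. The 3 cyp61- libraries lay above the 3 of wild type (N) for 23 of them (37.1% of all). The double mutant was below wild type (N) for 32 (60.4% of all), with a median of -0.96 beside -0.08, and 24 did not overlap (15.0% of all). From low to high, the levels stood in the order double mutant, wild type (N), cyp61-, tagged strain for 24 of the 35 (25.7% of all genes above the minimum level). The double mutant was the lowest of these 4 strains for 32. Its place below cyp61- was fixed by the choice, and this count was not made over all genes.

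The tagged strain exceeded cyp61- for 29 of the 35 genes (58.3% of all), with a median log2(CPM + 1) difference of 0.67 beside 0.11 over all genes. For 18 the 3 tagged libraries lay above the 3 cyp61- libraries (31.9% of all), and for 0 they lay below (20.6% of all). On this scale 29 genes stood above wild type (N) in the tagged strain, and they included all 28 that did so in cyp61-. The 6 genes lower in the tagged strain, which are the run, g4988 and g4835, were also below wild type (N) in cyp61- by mean log2(CPM + 1). Neither overlap was counted over all genes, and both differences subtract the same wild type (N) libraries. The cyp61- libraries also helped to choose the genes, so these overlaps are a description. In the run the cyp61- libraries were split. Gene g4823 had 1807, 1279.9 and 120.3 CPM in cyp61-, against 835, 981 and 1149 CPM in wild type (N), so that A and B lay above and C below all wild type (N) libraries. For g4821 and g4822 cyp61- A lay above all wild type (N) libraries, B among them and C below them. For g4824 A lay among them, and B and C lay below. For g4988 the cyp61- libraries had 1057, 1228 and 160.0 CPM against 1218, 1076 and 1069 CPM in wild type (N), so that cyp61- C again stood apart.

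**Figure D5:**
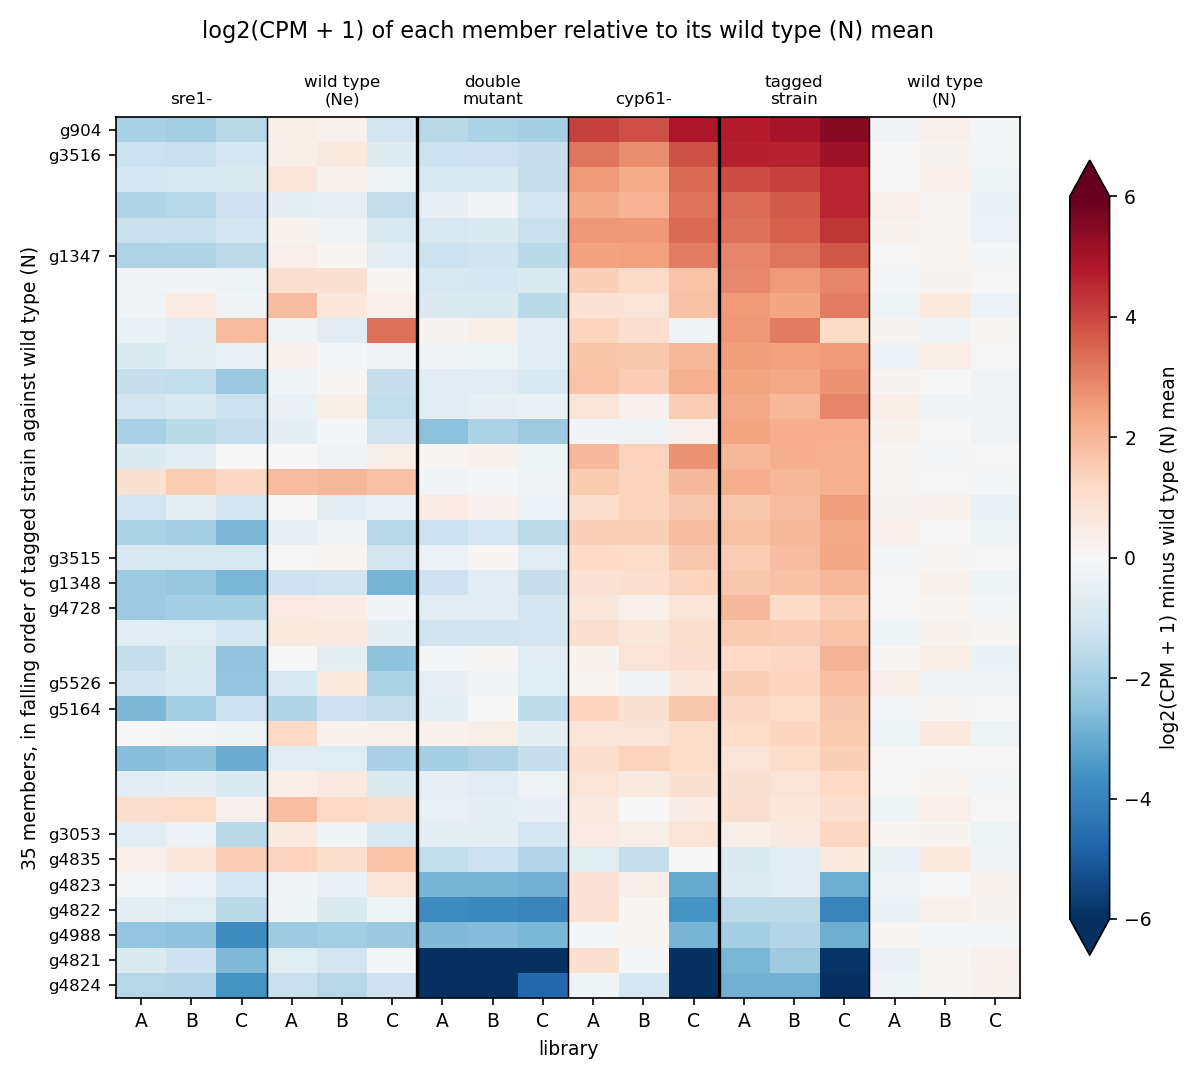
log2(CPM + 1) of the 35 genes (rows, in falling order of the edgeR fold change of tagged strain over wild type (N)) in the 18 libraries (columns), each minus the gene's wild type (N) mean, with colours saturated beyond 6 in either direction. Most upper rows are above wild type (N) in the tagged strain and in cyp61- and below it in the double mutant, and the lowest rows, g4821 and g4824, are lowest in the double mutant, cyp61- C and tagged strain C.

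Replicate spread was wider for the 35 genes than for genes in general. The median SD of log2(CPM + 1) among the 3 tagged libraries was 0.37 for them and 0.17 for all genes above the minimum level. Among the 3 wild type (N) libraries it was 0.25 and 0.14. A wide case was g3828 on contig 0, named after its values were seen, with 106, 87.6 and 541 CPM in sre1- against 121, 89.0 and 1437 CPM in wild type (Ne). In A and B the 2 strains were close, and g3828 was kept by 7 of the 12 choices with a library left out, the fewest of the 35. Its call in the tagged strain (log2 fold change 2.29 ± 0.92, edgeR adjusted p = 0.0453) was lost without tagged strain A or B or any wild type (N) library.

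The 35 genes lay on 10 of the 22 contigs. Contig 3 held 8 of them among 673 genes above the minimum level (1.19%) and contig 0 held 6 among 810 (0.741%), beside 0.599% over all contigs, while contig 8 held none among 352. Next to another of the 35 by number lay 8 genes (22.9%), beside 0.947% of the other 5809 genes above the minimum level. They were the run and 2 pairs, g1347 with g1348 on contig 3 and g3515 with g3516 on contig 0, named after their values were seen. Gene g1347 rose in the tagged strain by 3.09 ± 0.22 (edgeR adjusted p = 8.69e-08) and g1348 by 1.57 ± 0.28 log2 units (edgeR, adjusted p = 0.000242). Gene g3515 rose by 1.72 ± 0.23 (edgeR adjusted p = 2.28e-05), less than its neighbour g3516. In the double mutant g1347 had 49.8, 52.1 and 39.6 CPM and g1348 had 18.2, 29.0 and 16.6 CPM. In cyp61- g1347 had 652, 671 and 1021 CPM and g1348 had 83.7, 90.3 and 115 CPM. Both genes of each pair rose in the tagged strain, by different amounts, while their direction in sre1- and the double mutant was fixed by the choice.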

How the data were processed

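RNA-seq counts of 18 libraries were used. Per the file headers, the authors deposited total read counts per gene, without normalization, on the assembly QXden1.PacBioOnly. The aligner, the counter, the gene models and the use of strand for RNA-seq were not given in the sources used here. ChIP-exo peak lists were not used here, since the count tables hold no gene coordinates. Columns of wild type (Ne), whose headers drop the final letter of their labels, were matched through the table that those samples name.

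The 35 genes were chosen on CPM from library totals, with a pseudocount of 1. The members, lists and tests were chosen with earlier results of these data known. Counts were tested with edgeR 4.0.16 (limma 3.58.1, R 4.3.3) after filterByExpr and TMM scaling. A single quasi-likelihood fit of all 18 libraries had group as its only term, and Benjamini-Hochberg adjustment ran over all 6228 genes tested, with a threshold of 0.05. SE was the log2 fold change divided by the square root of F. DESeq2 1.42.0 was an alternative. The test script was checked on simulated counts. Levels are CPM by library total, while fold changes called edgeR's use TMM. The series text calls the replicates biological. No replicate libraries were near-identical (chi-square averaged 17.2 to 322 over genes), and none was merged. Named genes were the 2 with the largest difference in each choosing comparison, the 2 with the largest rise and fall in the tagged strain, and those nearest the thresholds. Genes named outside this rule, after their values were seen, are marked as such where they appear.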

Additional observations from a re-analysis of the deposited data

How the results depend on the processing

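For tagged strain over wild type (N), no fold change of the 35 genes turned in direction under any of 12 alternatives, and 21 of the 28 higher and 2 of the 4 lower calls held in all of them. With libraries left out, of this comparison or of the choice, the number called higher ran from 22 to 52, the number called lower from 0 to 5, the median log2 fold change from 1.01 to 2.24 and the number of genes chosen from 31 to 64. With a threshold of -1, 10 genes were chosen, 10 of them higher and 0 lower, with a median of 2.12. A stricter threshold keeps fewer genes by construction, and why the calls and the median moved was not tested. Leaving out library C of both sre1- and wild type (Ne), 39 of 47 genes were higher and 0 lower (the cause was not tested). Both counts of 0 were also 0 at an unadjusted p under 0.05 in edgeR and in DESeq2. Library totals in place of TMM moved the median to 1.96. TMM-scaled CPM in the choice gave 44 genes, 34 of them among the 35. DESeq2 called 28 higher and 4 lower. With only these 2 groups in the fit 28 were higher and 5 lower, both with the replicate block (median 1.68) and without it (median 1.72). Same-letter libraries of the 2 groups did not deviate together (correlations -0.084, -0.113 and -0.170), so letters were not taken to pair them. Depth limits the least abundant gene, g5164, which had 0.365 CPM in sre1- A.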
